A study of Homo sapiens with 6 samples.

Results

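The 7 genes SNAI1, SNAI2, SNAI3, TWIST1, TWIST2, ZEB1 and ZEB2 encode the transcription factors best known as inducers of the epithelial-to-mesenchymal transition (EMT). They were described here by the H3K27ac peaks that overlapped their GENCODE gene bodies or lay within 100 kb of them. That rule gave 42 of the 30784 peaks in the list, or 0.136%, around 7 of 20015 protein-coding genes. The peaks came from SU-CCS-1 cells, a human line derived from clear cell sarcoma (CCS) with the fusion genotype EWSR1::ATF1, which all samples share. The 6 samples were 3 H3K27ac immunoprecipitates and 3 inputs, which are sonicated chromatin sequenced without antibody, with no treatment and no second line. A single merged peak list of positions was used, with no value for any sample, so no result below has a replicate error or a test, and the reads behind each sample or peak cannot be read from it, the study giving only an approximate sequencing depth for its libraries. A locus without a peak did not pass the calling threshold or was removed after calling, and a wide peak is not necessarily a strong one.

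SNAI1 (Snail), SNAI2 (Slug) and SNAI3 (Smuc) are zinc finger repressors that bind E-box sequences with the core CAGGTG and recruit histone deacetylases and other corepressors. TWIST1 and TWIST2 are basic helix-loop-helix (bHLH) proteins that bind E-boxes as dimers, often with E proteins. ZEB1 and ZEB2 are large proteins with a zinc finger cluster near each end and a homeodomain between them, which bind the same CAGGTG core and are held down by the miR-200 microRNAs. In the embryo several of these factors act in the neural crest, the cell population that also gives rise to melanocytes. CCS is a sarcoma with melanocytic features. H3K27ac, acetylation of histone H3 at a lysine of its tail, is found at active promoters and enhancers.

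Of the 7 genes, 6 had a promoter peak, defined as a peak within 3 kb of any annotated transcript start, against 63.4% of all protein-coding genes. This was 85.7% of the members, with a 95% Wilson interval of 48.7 to 97.4% that covers the counting of 7 genes only, and it contained the share of all genes. In the same 6 genes the start of the canonical transcript itself lay inside a peak, which held for 53.5% of protein-coding genes. SNAI3 was the gene without either. The peaks were unevenly shared out, since SNAI1 had 16 and ZEB2 had 12, while the other 5 genes had 14 among them. The SNAI1 count depends on the 100 kb flank, as within 50 kb SNAI1 had 7 and ZEB2 still 12. By position, 14 peaks were promoter peaks of a member, 12 were promoter peaks of a neighbouring gene, 15 were intergenic and 1 lay inside a member away from any start. The 42 widths ran from 410 to 5390 bases with a median of 1005, close to the median of 1060 over all peaks, and summed to 60.9 kb.

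**Figure D1:**
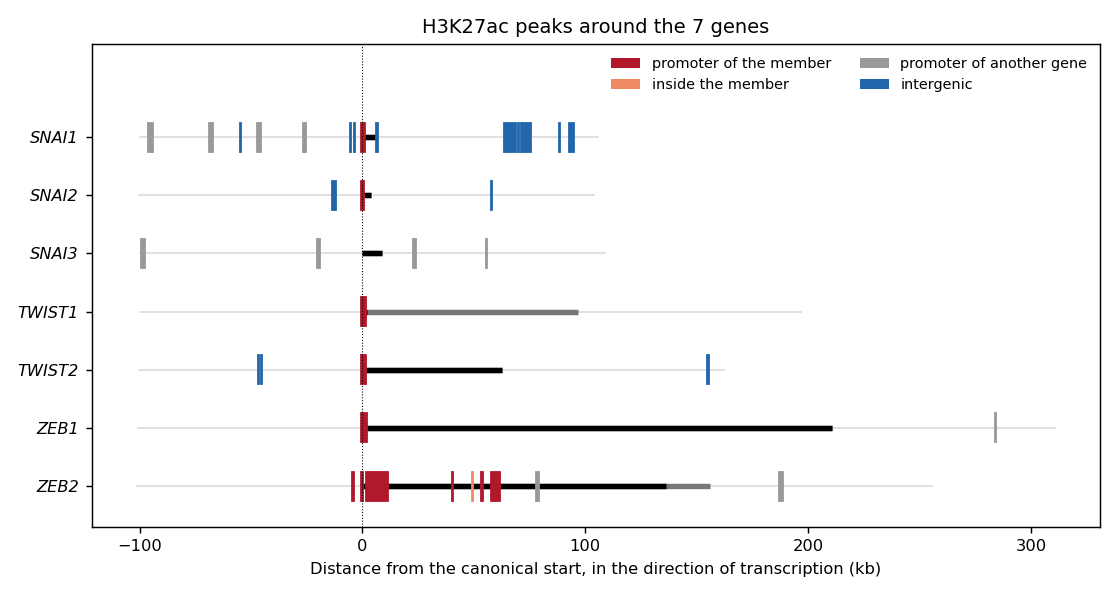
Each row is a gene, drawn in its direction of transcription with the canonical start at 0; the x axis is distance in kb, the black bar the canonical transcript, the dark grey bar the rest of the annotated gene, the thin line the 100 kb on each side, and each box a peak coloured by class and outlined so that the narrowest remain visible. SNAI1 and ZEB2 hold 28 of the 42 peaks, TWIST1 has 1 peak, and the 4 peaks around SNAI3 all sit at promoters of other genes.

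The widest promoter peak was of ordinary width in most of the 6 genes. At ZEB2 it was not the peak over the canonical start, which measured 810 bases. The widest promoter peak measured 1540 bases at SNAI2, 1910 at SNAI1, 1970 at TWIST2, 2240 at TWIST1, 2780 at ZEB1 and 4330 at ZEB2, against a median of 1600 over genes with a promoter peak. Of those genes, 46.9% had a narrower one than SNAI2, 64.1% than SNAI1, 66.3% than TWIST2, 74.7% than TWIST1, 84.6% than ZEB1 and 94.6% than ZEB2. ZEB1 and ZEB2 thus lay in the upper part of the distribution, and the other 4 nearer its middle. The peaks over the canonical start reached farther into the gene than away from it at SNAI1, TWIST1, TWIST2 and ZEB1. They did not at SNAI2, with 831 bases upstream and 708 downstream, or at ZEB2, with 411 and 398. Only 7.14% of genes with a start in a peak had a shorter downstream reach than ZEB2. From the canonical start, the ZEB1 peak ran 845 bases upstream and 1934 bases downstream, and 91.3% of genes with a start in a peak had a shorter downstream reach. The TWIST2 peak ran 504 and 1465 bases and the TWIST1 peak 724 and 1515 bases in those directions. Over all genes with the canonical start in a peak the median reaches were 668 bases upstream and 847 downstream, and 65.3% of genes reached farther downstream.

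**Figure D2:**
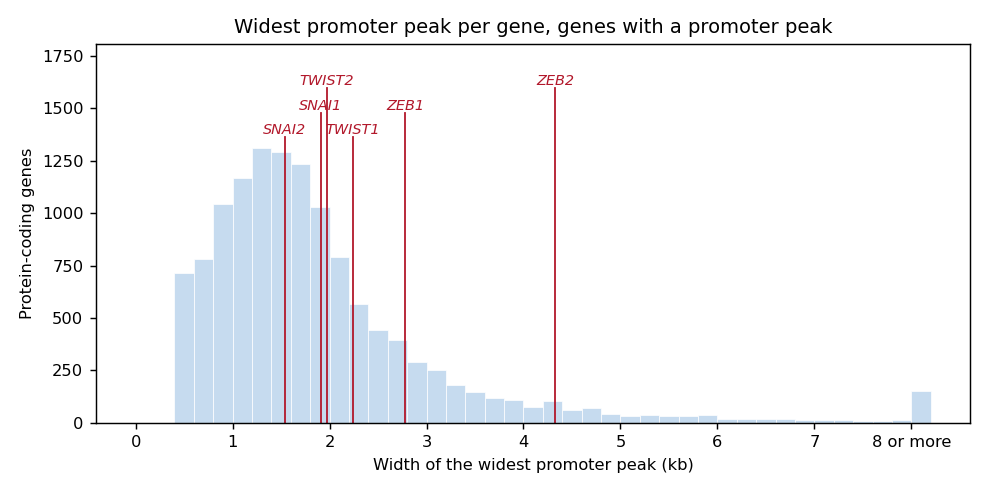
Bars count protein-coding genes by the width in kb of their widest promoter peak, in steps of 0.2 kb with wider peaks pooled at 8 kb or more, and red lines mark the 6 genes with one. SNAI2 at 1.54 kb sits beside the mode and ZEB2 at 4.33 kb in the upper tail.

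SNAI1, on chromosome 20 (chr20:49982980-49988886, plus strand), lay among many peaks. Its single promoter peak spanned 1910 bases over the only annotated start, with 769 bases upstream of it and 1140 downstream, and accounted for all 1.14 kb in peaks on the 5.91 kb body. A further 3 narrower intergenic peaks flanked it, of 460 bases at 5.34 kb and 430 bases at 3.65 kb upstream, and of 960 bases at 6.60 kb downstream of the start. For each of these 3, SNAI1 had the nearest protein-coding start. The window of the gene plus 100 kb on each side held 23.9 kb in peaks, 11.6% of its length, and 93.8% of protein-coding genes had a smaller share. Of the 16 peaks, 10 lay more than 3 kb from every annotated start, and 98.4% of genes had fewer such peaks. At least 1 distal peak of this kind was present for 50.1% of protein-coding genes.

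The largest block of acetylated sequence near SNAI1 was not at the gene but downstream of it. When peaks separated by no more than the distance used in the study for joining enhancers were stitched, 4 intergenic peaks of 5390, 510, 520 and 3680 bases formed a region at chr20:50046461-50058430. It began 63481 bases and ended 75450 bases downstream of the SNAI1 start and overlapped no protein-coding gene. Its summed peak width of 10.1 kb ranked 579 of 17049 stitched regions and was above 7.97 kb, the point at which the ranked curve reached a slope of 1, a cut-off for super-enhancers that is usually applied to signal and here only to width. The region covering the SNAI1 start joined 4 peaks with 3.76 kb in all and ranked 2702. From the middle of the downstream region the nearest protein-coding start was that of UBE2V1, 59.1 kb away on the far side. The list does not say which gene, if any, the region serves. Another 2 intergenic peaks, of 450 and 1990 bases, followed at 88.27 and 93.89 kb from the SNAI1 start.

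The 5390-base peak held 12 copies of the E-box CAGGTG or its reverse complement CACCTG, and the 3680-base peak held 7. The central 300 bases of both are shown because they are the middle of the widest peaks around any of the 7 genes outside a promoter window. Both are given in hg38 on the plus strand, at chr20:50049006-50049305 and chr20:50056441-50056740, with no exon overlapping, and capitals mark matches to CAGGTG or CACCTG, to CAGCTG, and to TGANNTCA.
SNAI1 downstream peak A: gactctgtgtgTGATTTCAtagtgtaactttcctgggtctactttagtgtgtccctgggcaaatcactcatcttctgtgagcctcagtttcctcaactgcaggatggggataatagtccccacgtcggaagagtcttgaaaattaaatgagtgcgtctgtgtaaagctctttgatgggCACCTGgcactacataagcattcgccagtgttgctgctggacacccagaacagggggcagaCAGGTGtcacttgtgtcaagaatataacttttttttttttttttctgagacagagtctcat
SNAI1 downstream peak B: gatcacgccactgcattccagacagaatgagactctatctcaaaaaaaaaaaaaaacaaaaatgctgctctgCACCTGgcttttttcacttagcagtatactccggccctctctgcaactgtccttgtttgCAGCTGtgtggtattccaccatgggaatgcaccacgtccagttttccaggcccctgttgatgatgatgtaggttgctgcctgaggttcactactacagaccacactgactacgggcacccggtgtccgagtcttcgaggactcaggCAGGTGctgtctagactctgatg
Each stretch held 2 CAGGTG matches. Over all peaks CAGGTG had 1.11 matches per kb, and 25.7% of peak centres held at least 1. The counts of 12 and 7 over the whole peaks are not adjusted for width. The distal peak of 1990 bases held the full cyclic AMP response element TGACGTCA, the site bound by ATF/CREB factors such as ATF1, at 94.4 kb from the SNAI1 start. It was one of 2 such peaks among the 42, and is shown with 50 bases on each side, chr20:50077357-50077464, with the match in capitals.
SNAI1 downstream TGACGTCA site: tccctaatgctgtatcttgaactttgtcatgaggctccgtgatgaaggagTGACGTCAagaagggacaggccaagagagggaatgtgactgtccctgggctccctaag
TGACGTCA was present in 2.58% of all peaks over their whole width and in 4.76% of the 42, which is 2 peaks. The other one was a neighbour's promoter peak, at RNF166 and CTU2 in the SNAI3 window. A match describes the letters and not binding.

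SNAI2, which acts in neural crest migration and in melanocyte development, lay in a sparser setting on chromosome 8 (chr8:48917598-48921740, minus strand). Its promoter peak of 1540 bases contained all 3 annotated starts and extended 831 bases upstream and 708 bases downstream of the canonical one. An intergenic peak of almost the same width, 1550 bases, lay 12.49 kb upstream of the outermost start, and a narrow one of 410 bases lay 57.76 kb downstream of the canonical start. SNAI2 had the nearest protein-coding start to all 3 peaks. The upstream peak had a GC content of 36.2%, with only 1.68% of all peaks lower, whereas the promoter peak had 50.3%. Joined, the promoter and upstream peaks summed to 3.09 kb and ranked 3568 of the stitched regions, short of the slope-1 point.

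SNAI3, the least studied of the SNAI genes, on chromosome 16 (chr16:88677688-88686507, minus strand), had no peak on its 8.82 kb body. The nearest peak ended 19.2 kb upstream of its only start, at the shared promoter of RNF166 and CTU2, and the nearest on the other side lay 22.5 kb from the start at the promoter of MVD and of the antisense RNA SNAI3-AS1. The 2 remaining peaks in its window were at the promoters of ZC3H18 and PIEZO1. Its window was rich in genes, with the starts of 15 other genes of any type, 7 of them protein-coding, and 77.6% of protein-coding genes had fewer of any type. Most promoters of similar CpG content had a peak. In the 300-base window from 250 bases before to 50 after the start, SNAI3 had a CpG observed-to-expected ratio of 0.98, the highest of the 7 genes. Among the 8215 genes with a ratio from 0.75 up to 1.0, 83.1% had a promoter peak. SNAI1 at 0.93, TWIST2 at 0.87 and ZEB2 at 0.78 fell in the same range and had one. SNAI2 at 0.72, TWIST1 at 0.66 and ZEB1 at 0.64 were in the range from 0.5, where 64.5% of genes had a promoter peak. Signal below the threshold at SNAI3 cannot be seen in a list of called peaks.

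**Figure D3:**
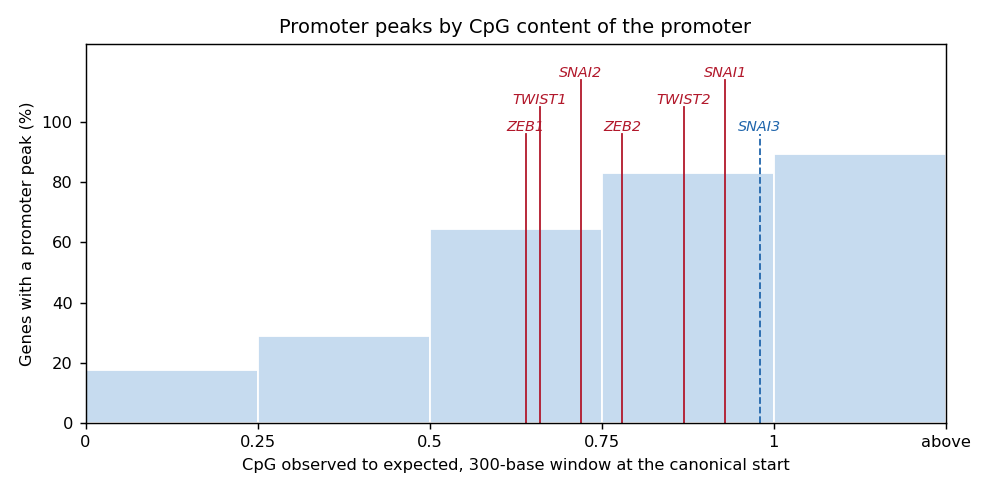
Bars give the percentage of protein-coding genes with a promoter peak in each range of the CpG observed-to-expected ratio (x axis, last bar 1.0 and above), and vertical lines mark the 7 genes, solid red with and dashed blue without a promoter peak. SNAI3 at 0.98 lies in a range where 83.1% of genes had one.

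TWIST1 showed a promoter peak and nothing else. The gene lies on chromosome 7 (chr7:19020991-19117636, minus strand), and its canonical transcript is only 2.17 kb long although other annotated transcripts extend the gene to 96.6 kb. The 2240-base peak covered all 3 starts and 0.755% of the window of the gene plus 100 kb on each side, and 24.5% of protein-coding genes had a smaller share. No other peak lay within 200 kb of the gene. The next peak was 419 kb upstream, and the next downstream was 1029 kb away, at the promoter of HDAC9, a histone deacetylase gene named here after its position was seen. The distance between the peaks on either side was 1450 kb, against a median of 132 kb over the 12672 genes with a promoter peak for which it could be measured, and 96.9% of these had a shorter one. The side with the nearer peak was also long, with 98.4% of genes lower.

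TWIST2 (Dermo1), on chromosome 2 (chr2:238848032-238910534, plus strand), had a promoter peak of 1970 bases over all 3 starts and none in the rest of its 62.5 kb body. A pair of narrow intergenic peaks, of 490 and 480 bases, lay 46.40 and 45.32 kb upstream of its outermost start. An 860-base intergenic peak lay 154.91 kb downstream, nearer to the start of HDAC4 at 63.99 kb. The promoter peak ranked 6464 and the upstream pair 12379 among the stitched regions. The bases just before the outermost start, chr2:238847835-238848031 on the plus strand, are shown as an example of a GC-rich start. They come from the RefSeq promoter table (GRCh38.p14). Not all 7 genes have such a start: the 300-base windows of SNAI2 and ZEB2 had 49.3% and 49% GC. The 197 bases held 24 CpG dinucleotides at 75.6% GC, and no searched motif matched in them, so no capitals are used.
TWIST2 promoter: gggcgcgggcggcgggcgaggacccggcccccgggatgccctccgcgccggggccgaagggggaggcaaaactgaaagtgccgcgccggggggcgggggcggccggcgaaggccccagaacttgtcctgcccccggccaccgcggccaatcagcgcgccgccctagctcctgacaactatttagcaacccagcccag

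ZEB1, on chromosome 10 (chr10:31318495-31529814, plus strand), had its acetylation concentrated at a single peak. The 2780-base peak held 14 of 21 distinct annotated starts, 66.7%, together with the start of the antisense RNA ZEB1-AS1. Past it, the rest of the 211 kb body was free of peaks, although 7 further starts are annotated there. The peak-free stretches measured 285 kb upstream and 282 kb downstream, and for the nearer of the 2 sides 97% of genes with a promoter peak had a shorter stretch. The upstream neighbour was the promoter of ZNF438, a zinc finger gene. The remaining peak in the window was 470 bases wide, 284.29 kb downstream, at the start of an unnamed non-coding gene. The 300-base window at the canonical start held 3 CAGGTG matches, whereas 20.4% of protein-coding promoters had at least 1. SNAI1 and SNAI3 had 1 each, and SNAI2, TWIST1, TWIST2 and ZEB2 had 0. The RefSeq window (GRCh38.p14) is shown up to the start of the outermost coding transcript, chr10:31318966-31319124 on the plus strand, with the match in capitals starting at base -242 from the canonical start. The other 2 matches lie beyond the sequence shown. All 159 bases shown fall in annotated exons, and ZEB1 starts of other transcript types are annotated farther upstream, the outermost at base -721.
ZEB1 promoter: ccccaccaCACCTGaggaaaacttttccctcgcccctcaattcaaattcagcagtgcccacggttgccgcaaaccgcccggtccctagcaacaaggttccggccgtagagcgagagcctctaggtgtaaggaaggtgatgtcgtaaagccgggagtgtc

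ZEB2 had the most bases in peaks on its body and in its promoter windows among the 7 genes, although SNAI1 had more in its 100 kb window, and peaks covered a larger share of the body at SNAI2 (24.6%) and SNAI1 (19.3%). It lies on chromosome 2 (chr2:144364364-144521057, minus strand), and 10 of its 12 peaks overlapped its 157 kb body, a number that 98.7% of protein-coding genes were below. Peaks covered 17.2 kb of the body, more than at 99% of genes, and 11% of its length, more than at 83.8%. The canonical start fell in a peak of only 810 bases, which ran 411 bases upstream and 398 downstream of it. The 4330-base peak began 1389 bases farther into the gene and contained 20 annotated starts, while the 810-base peak contained 12. ZEB2 has 46 distinct starts, of which 32, or 69.6%, fell inside peaks. Over all protein-coding genes 41.1% of starts did, and for the 1154 genes with at least 20 starts the median was 45%.

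At ZEB2, 9 peaks met the definition of a promoter peak, and 0.17% of protein-coding genes had at least as many. That count follows the annotation closely. With a window of 1 kb, or with the outermost start alone, it was 3, with the starts of protein-coding transcripts alone it was 4, and with the wider 50% of all peaks it was also 4. The promoter windows of its many starts cover 57.6 kb, and 24 of the 1154 genes with at least 20 starts had 9 or more promoter peaks, with a median of 1 in that class.

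The ZEB2 peaks fell into a block at the start and a block in intronic sequence. The block at the start joined 6 peaks over 16.3 kb, with 10.9 kb in peaks, and ranked 498 of 17049. It was the only stitched region past the slope-1 point at the body or promoter window of any of the 7 genes, where 7.91% of protein-coding genes had one. Gaps of 260, 290, 330 and 990 bases separated 5 of its peaks. The intronic block joined 4 peaks over 21.4 kb, of 3870, 1100, 450 and 620 bases centred 59.65, 53.63, 49.20 and 40.47 kb into the gene, and with 6.04 kb ranked 1377, short of the point. A further 1050-base peak lay 78.61 kb into the gene. The next peak upstream of the gene's promoter peaks was 187 kb away.

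**Figure D4:**
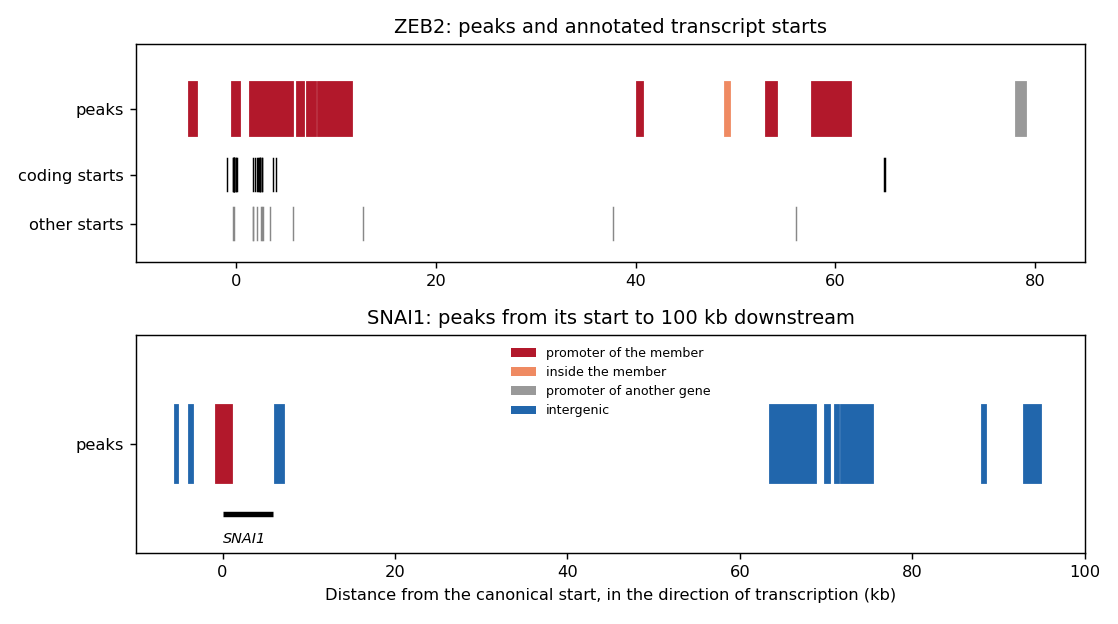
The upper panel shows ZEB2 peaks and, below them, the starts of protein-coding and of other transcripts; the lower panel shows SNAI1 peaks. Both panels are cropped. Left out are the ZEB2 starts farthest into the gene, none of them in a peak, the ZEB2 window's peak at GTDC1, and the SNAI1 peaks farther upstream. The x axes give distance in kb from the canonical start along the gene, and colours give the peak class. At ZEB2 32 of 46 starts fall in peaks next to the gene's start, and at SNAI1 the 12 kb downstream region stands apart from the promoter peak by more than 50 kb.

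The ZEB2 peaks inside the gene were low in GC. From 9.90 to 78.61 kb into the gene, 6 peaks had between 37.6% and 48.5% GC with a median of 40.2%, against medians of 47.7% for peaks away from all starts and 58.2% for promoter peaks. The 7 peaks that contained a member's start had between 49.8% and 69.6%. The central 300 bases of the 3870-base intronic peak, chr2:144460316-144460615 on the minus strand, are shown for contrast with the TWIST2 start, with 2 CpG dinucleotides in 300 bases of 38.7% GC and the single CAGGTG match in capitals.
ZEB2 intronic peak: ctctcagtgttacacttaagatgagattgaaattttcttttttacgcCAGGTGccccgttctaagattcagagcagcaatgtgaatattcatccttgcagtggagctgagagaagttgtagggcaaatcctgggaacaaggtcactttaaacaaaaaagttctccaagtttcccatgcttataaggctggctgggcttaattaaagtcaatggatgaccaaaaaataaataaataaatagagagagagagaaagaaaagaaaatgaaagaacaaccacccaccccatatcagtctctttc

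For 6 motifs, matches were counted on both strands in the central 300 bases of the 42 peaks. CAGGTG, the E-box of SNAI and ZEB proteins, was in 15, or 35.7%, against 25.7% of all peaks. Over whole peaks the shares were 66.7% and 64.9%, and the density was 1.17 matches per kb in the 42 peaks and 1.11 in all peaks, so the difference in the centres was not seen over the full widths. CAGCTG, an E-box of many bHLH dimers, was in 6 centres, 14.3% against 16.1%, and CATATG, an E-box bound by TWIST proteins, in 1, 2.38% against 2.6%. TGANNTCA, which includes TGACGTCA, was in 7 centres, 16.7% against 12.7%, TGACGTCA itself in 1, 2.38% against 0.637%, and the AP-1 site TGAGTCA in 2, 4.76% against 3.99%. Peaks next to each other at SNAI1 and ZEB2 are not independent, and these shares carry no test.

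The miR-200 microRNAs, which bind the ZEB1 and ZEB2 messages, were looked up next. Their mature sequences are shown from RefSeq (GRCh38.p14) because they form a pair of seed groups. Each group has members on both chromosome 1 and chromosome 12. Seeds, bases 2 to 8, are in capitals, and the groups differ by U4C, counted from 1 at the 5′ end.
hsa-miR-200b-3p: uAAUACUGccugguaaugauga
hsa-miR-200c-3p: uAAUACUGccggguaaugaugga
hsa-miR-429: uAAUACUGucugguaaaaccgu
hsa-miR-200a-3p: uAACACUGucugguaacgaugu
hsa-miR-141-3p: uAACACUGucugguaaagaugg
The genes of miR-200b, miR-200a and miR-429 on chromosome 1 had no peak within 3 kb of their annotated starts, the nearest being 8.19, 8.95 and 10.1 kb away. The annotated start of a microRNA gene need not be where its transcript begins, so a promoter farther away could be missed. Those of miR-200c and miR-141 on chromosome 12 had 2 peaks within 3 kb, but neither start lay in a peak, and the nearer of these, of 400 bases, lay also within 3 kb of a start of PHB2. The antisense RNAs ZEB1-AS1 and ZEB2-AS1 had their starts in peaks that also held starts of ZEB1 and ZEB2. In all, 5 of the 10 RNA genes of this list found in the annotation had a promoter peak. The 5 are not independent. They are the miR-200c and miR-141 genes, the RNA gene MIR200CHG that spans both, and the 2 antisense RNAs that share peaks with ZEB1 and ZEB2. No share over all RNA genes was worked out. The gene of miR-205 lay 352 kb from its nearest peak.

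The genes of corepressors and other regulators of SNAI and ZEB proteins nearly all had a promoter peak. Of 22 repressor partners, 21 had a promoter peak, or 95.5%, again against 63.4% of protein-coding genes. They included CTBP1 and CTBP2, the corepressors of ZEB proteins, with widest peaks of 3350 and 3970 bases, HDAC1 and HDAC2 with 1030 and 1880 bases, KDM1A, the histone demethylase recruited by SNAI1, with 1000 bases, and GSK3B, the kinase that marks SNAI1 for degradation, with 3440 bases. WTIP, a LIM domain protein, was the exception. By canonical start, 19 of the 22 lay in a peak, against 53.5% of protein-coding genes. The canonical start of CTBP2 did not, and its nearest peak was 25.6 kb away. Of 11 bHLH partners and inhibitors of the TWIST proteins, 8 had a promoter peak, or 72.7%. The Wilson interval of 43.4 to 90.3% contained the 63.4% of all protein-coding genes. The canonical start lay in a peak in 6 of the 11. The E protein genes TCF3, TCF12 and TCF4 had widest peaks of 2700, 2470 and 1330 bases, and ID1, ID2, ID3 and ID4, whose products sequester E proteins, had 5030, 5730, 8350 and 3060 bases. HAND1, HAND2 and TCF15, bHLH genes of heart, limb and somite, had none. In transforming growth factor beta (TGF-β) and bone morphogenetic protein (BMP) signalling, a well-known inducer of these genes, 14 of 16 had a promoter peak, or 87.5%. The Wilson interval was 64 to 96.5%. They included TGFBR1 (1690 bases), SMAD3 (1550 bases) and the inhibitor SMAD7 (3400 bases). The ligand genes BMP4 and BMP7 had none. By canonical start, 13 of the 16 lay in a peak.

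Epithelial genes, several of them known targets of these repressors, were mostly without a promoter peak. Of 30 epithelial targets, 10 had one, or 33.3%, with a Wilson interval of 19.2 to 51.2%. CDH1, which encodes E-cadherin, had its nearest peak 106 kb from the start, EPCAM 33.3 kb, GRHL2, an epithelial transcription factor, 285 kb, and ESRP1, an epithelial splicing factor, 36.7 kb. The widest promoter peaks of the 10 ran from 610 bases at OVOL1 to 2400 at ELF3, with 680 at OCLN (occludin) and 2010 at DSP (desmoplakin). Of 24 mesenchymal genes, 11 had a promoter peak, or 45.8%, with a Wilson interval of 27.9 to 64.9% that contained the share of all genes. VIM (vimentin) had 4210 bases, CDH2 (N-cadherin) 1620, SPARC 2660 and MMP14 8490, while FN1, COL1A1, COL3A1, POSTN and PRRX1 had none. Of 17 neural crest specifiers, 2 of them SNAI2 and TWIST1 themselves, 12 had one, or 70.6%, with a Wilson interval of 46.9 to 86.7% that contained the 63.4% of all protein-coding genes. The widest were at SOX10 with 18040 bases, ID3, MYC with 7060 and TFAP2A with 6790. SOX9, FOXD3, TFAP2B, PAX7 and ZIC1 had none. By canonical start, 5 of the 30 epithelial, 8 of the 24 mesenchymal and 10 of the 17 neural crest genes lay in a peak. This share was 53.5% over protein-coding genes. At MMP2 and ACTA2, counted as having a promoter peak, the canonical start was 23.9 and 37.9 kb from the nearest peak. A peak or its absence at these genes does not show that a factor acted on them.

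**Figure D5:**
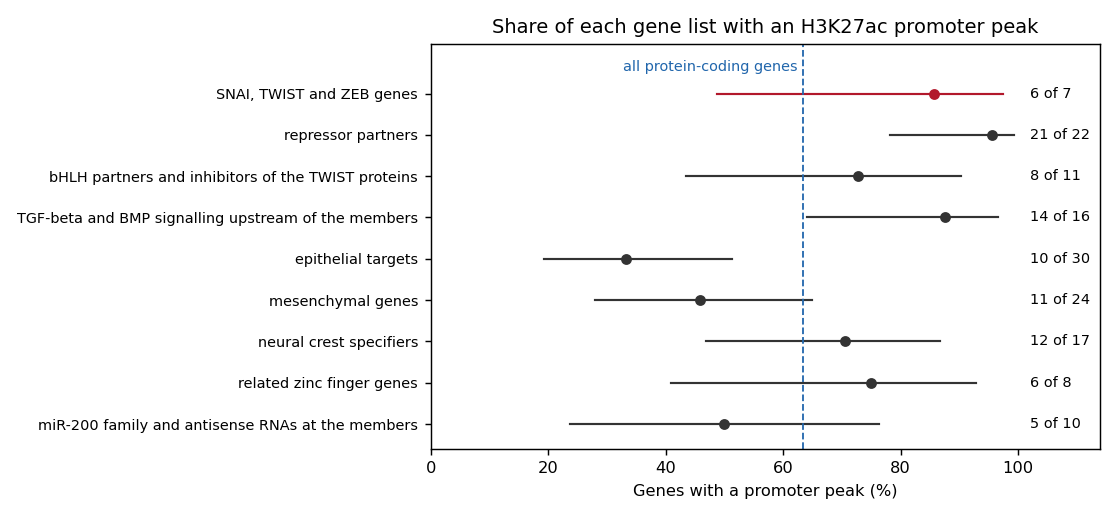
Points give the percentage of each list with a promoter peak, lines the 95% Wilson interval for the counting of genes, numbers at the right the counts, and the dashed line the 63.4% of all protein-coding genes. Repressor partners (95.5%) and TGF-β and BMP genes (87.5%) lie to the right of the line and epithelial targets (33.3%) to its left; the last list holds RNA genes, to which the line does not apply.

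The label of the cells was checked against markers. All 7 melanocytic and fusion genes (SOX10, MITF, PMEL, S100B, MLANA, EWSR1 and ATF1) had a promoter peak, against 63.4% of protein-coding genes. Their canonical start lay in a peak in 4 of the 7, and not at PMEL, S100B and MLANA. A peak at the EWSR1 or ATF1 promoter does not show the fusion. The epithelial markers CDH1, EPCAM, ESRP1 and KRT19, the blood markers PTPRC and CD3E and the muscle markers MYOD1 and MYOG had no promoter peak. The 4 epithelial markers also belong to the list of 30 epithelial targets, in which 10 other genes, KRT8 and DSP among them, had a promoter peak.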

How the data were processed

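Per the labels and the study's methods, H3K27ac and input libraries from SU-CCS-1 were aligned to hg38 with BWA-MEM (BWA 0.7.10-r789), duplicates were removed, and broad peaks were called with MACS2 2.2.6 against input, after which denylisted regions were dropped. The authors deposited 1 list of merged peaks with chromosome, start, end and name. Starts and ends, in bases, were the values used. The list holds no read count, score or p-value, widths come in steps of 10 bases from 400 upwards, and how the 3 replicates were merged is not given in the sources used here.

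Peaks were intersected with GENCODE 44 (hg38) in Python 3.11.15 with numpy 2.4.6, pysam 0.24.0 and scipy 1.17.1. Protein-coding genes on chromosomes 1 to 22, X and Y gave the background, genes shared by X and Y being kept on X. The canonical start is that of the Ensembl canonical transcript. Peaks at most 12.5 kb apart were joined and ranked by summed width. Named genes were the members, the listed genes, and genes at or nearest to a member's peaks. The 7 members and the gene lists were chosen with earlier results of these data known. Interval and motif routines were tested on simulated data. Promoter sequences are shown for TWIST2 and ZEB1 only.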

Additional observations from a re-analysis of the deposited data

How the results depend on the processing

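The count of 6 genes with a promoter peak, SNAI3 being the one without, was the same with a 1 kb window, with protein-coding starts alone, with the outermost start alone, with peak midpoints and with the wider 50% of peaks. The share of all protein-coding genes ranged from 49% to 63.4% over these settings. Promoter peaks at ZEB2 fell from 9 to 3 with a 1 kb window or the outermost start and to 4 with protein-coding starts or the wider 50% of peaks. The 42 peaks became 73 within 200 kb, 15 on the gene bodies and 20 among the wider 50%. Their 60.9 kb became 40.5 kb within 50 kb, 110 kb within 200 kb and 25.1 kb on the bodies. With peaks close to starts left out before joining, no gene kept a region past the slope-1 point at its body or promoter window (0 against 1, ZEB2), and within 100 kb the count was 1 against 2, SNAI1 remaining. Joining within 5 or 25 kb or ranking by span left both counts as they were. The share of all protein-coding genes with such a region within 100 kb was not worked out, so that count has no background here. Of the 40 settings for the 8 lists, 2 moved a count by over 1.5 times, namely epithelial targets to 5 of 30 with the wider 50% of peaks, and the RNA genes to 0, since they have no protein-coding transcript. Over whole peaks, the motif counts were 28 for CAGGTG, 4 for CATATG, 18 for CAGCTG, 2 for TGACGTCA, 17 for TGANNTCA and 7 for TGAGTCA, in longer sequence by construction. Windows set by canonical transcripts, added after the data were seen, gave 42 peaks again. No paired analysis was possible because the list has no value per replicate, and for the same reason no replicate could be left out. The depth behind a peak is unknown.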

Other observations

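Zinc finger genes related to the SNAI and ZEB genes were mixed. Of 8 zinc finger relatives, 6 had a promoter peak, or 75%, against 63.4% of protein-coding genes. The Wilson interval of 40.9 to 92.9% contained that share. The canonical start lay in a peak in 3 of the 8. Among the 6 were HIVEP1 and HIVEP2, large zinc finger proteins, with widest peaks of 2810 and 4410 bases. INSM1, a SNAG-domain repressor like the SNAI proteins, had a promoter peak of 1420 bases. SCRT2 and GFI1 had none.

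By bases in peaks within the promoter windows, the genes nearest in rank to ZEB2 (12170 bases) were IPO5 (12170), BIN3 (12184) and GPAT4 (12205). For ZEB1 (2780 bases) MAP3K1, ATP2B1 and BLOC1S6 had the same value, for TWIST1 (2240 bases) TENM1, GDE1 and ZDHHC7, for TWIST2 (1970 bases) PAXIP1, ZNRF1 and ZNF644, for SNAI1 (1910 bases) CYTH1, GPR19 and WBP1, and for SNAI2 (1540 bases) OSER1, RFC3 and USP46. Widths come in steps of 10 bases, so many genes tie: 20 genes shared the ZEB1 value and 51 the SNAI2 value, each gene itself included. SNAI3, at 0, was among the 7324 genes without a promoter peak.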
